A study of Mus musculus with 6 samples.

Results

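The 4 nuclear factor I genes (Nfia, Nfib, Nfic and Nfix), Etv1 and Nfatc4 were followed in cerebellar granule neurons (CGNs) that were given an inhibitor of the H3K27 methyltransferase EZH2. These 6 genes were taken by symbol from the 55341 gene symbols counted in each of 6 RNA-seq libraries, 3 per group, and all 6 passed the filter on low counts. The CGNs were cultured from granule neuron progenitors of CD1-IGS mice dissected at P6 to P8, each replicate being a pool of litters of both sexes, and cytosine arabinoside was given to every culture to stop division of non-neuronal cells. One group received the vehicle DMSO and the other GSK-126, an EZH2-specific inhibitor once at day in vitro 3 (DIV3). The labels name the day as DIV3 and the tissue as cerebellum, and the methods of the study place RNA collection at DIV5. The dose of this later addition was not given in the sources used here.

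NFI proteins bind DNA as dimers at paired TTGGC sites and are known in CGNs for driving axon growth, migration, dendrite formation and the late expression of synaptic genes such as Gabra6. ETV1, an ETS factor of the PEA3 subfamily, rises as CGNs mature, and it and the NFI proteins have been described as promoting one another's binding at late genes. NFATC4, which the phosphatase calcineurin sends to the nucleus when immature CGNs are depolarised, has been described as holding back NFI occupancy at the same genes until the membrane potential falls.

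Etv1 fell in every pair of cultures with GSK-126 and had the largest change of the 6 genes. It went from 202 ± 123 CPM (counts scaled to a common library size, SD, n = 3) with DMSO to 84.4 ± 33.6 CPM (SD, n = 3) with GSK-126, which the fit that compares libraries of one replicate number gave as a fall of 55.6%. Nfic and Nfix fell by 19.1% and 17% in that fit, and both calls depended on which pairs were kept. Nfia and Nfib, lower by 11.4% and 10.2%, did not pass the test, nor did Nfatc4, whose pairs went in both directions. The calls of Etv1, Nfic and Nfix came only with the replicate number in the fit, since edgeR called 0 genes without it.

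The libraries held between 7407189 and 13092763 counts on genes. Replicate 2 stood apart in both groups, with the highest summed level of granule neuron markers and the lowest of astroglial markers. Libraries with the same replicate number deviated together from their group means, so the number was used as a block beside the main fit. Without the block, edgeR's quasi-likelihood test called 0 of 16729 genes at a Benjamini-Hochberg adjusted p under 0.05, while 665 genes (3.98%) had an unadjusted p under 0.05 and DESeq2 without the block called 19 genes higher and 2 lower. With the block, edgeR called 1412 genes (8.44%), 561 higher (3.35%) and 851 lower (5.09%).

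Of the 6 genes, 0 were called without the block by edgeR, and 2 (Nfic and Etv1) were lower at an unadjusted p under 0.05, where 2.21% of all tested genes were lower and 1.77% higher. With the block, 3 of 6 were called lower (Nfic, Nfix and Etv1) and 0 higher. Of all tested genes, 5.09% were called lower and 3.35% higher in that fit. All but Nfatc4, 5 of 6, were lower with GSK-126 in each of the 3 pairs, as were 22.8% of all tested genes, and 0 were higher in each pair, as were 19.6%. The groups did not overlap for 2 members, Nfic and Nfix, both lower, which held for 4.72% of tested genes. The median log2 fold change of the 6 was -0.23 without the block and -0.22 with it, where the median of all tested genes was -0.0071 and -0.0056.

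**Figure D1:**
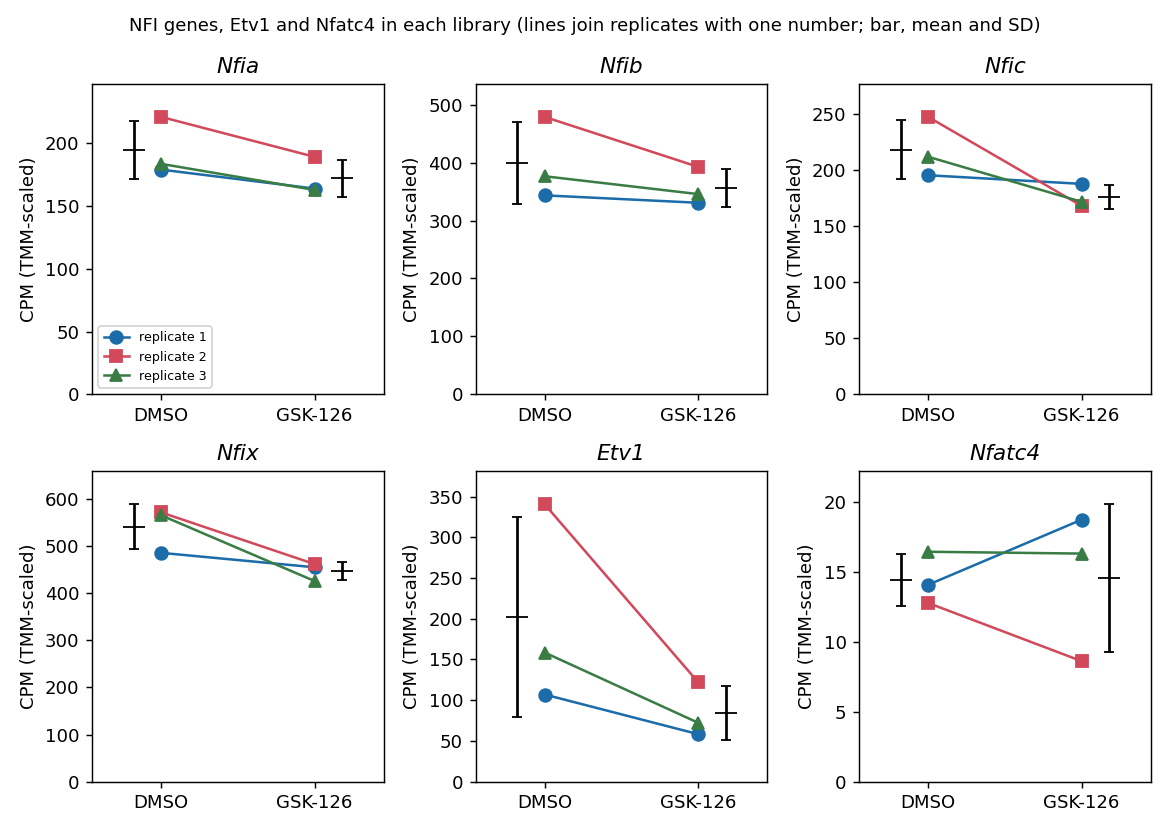
Level of each gene in CPM scaled by TMM factors in the DMSO and GSK-126 libraries, with lines joining libraries of one replicate number and bars giving the mean and SD of 3 libraries. Every Etv1 line falls, from between 107 and 340.5 CPM to between 58.4 and 122 CPM, the NFI lines fall less, and the Nfatc4 lines go up, down and level.

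Levels of different genes were compared per kilobase (kb) of exon, since a longer transcript gives more reads. On this scale the order with DMSO was Nfix, Nfic, Nfib, Nfia, Etv1 and Nfatc4, and it was the same with GSK-126. Nfix led with 73.6 ± 6.51 CPM per kb (SD, n = 3) with DMSO, above the other NFI genes in every library. Nfic followed with 33.0 ± 4.02 CPM per kb and Nfib with 26.7 ± 4.72 CPM per kb. Their order was not the same in every library, since Nfib (26.3) lay above Nfic (25.4) in GSK-126 replicate 2, and it turns over if the level is not divided by length. Nfia stood at 17.9 ± 2.11 CPM per kb with DMSO. Etv1 had 15.2 ± 9.22 CPM per kb and overlapped Nfia, since in DMSO replicate 2 it reached 25.6 against 20.3 for Nfia. With GSK-126 the same gene pair no longer overlapped, with Etv1 between 4.39 and 9.20 CPM per kb and Nfia between 15.0 and 17.4. Nfatc4 was lowest in all 6 libraries, with 2.48 ± 0.319 CPM per kb with DMSO and 2.50 ± 0.908 with GSK-126.

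**Figure D2:**
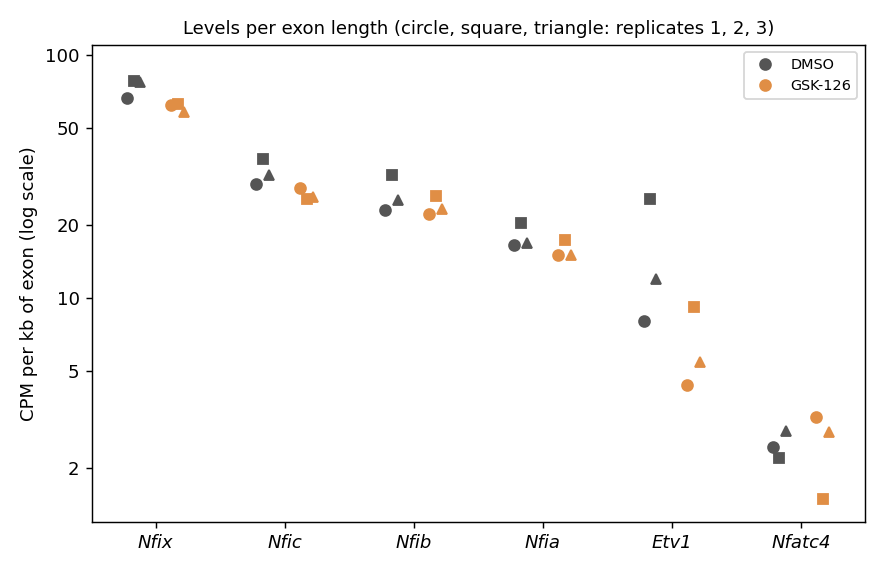
CPM per kb of exon (log axis) for each gene, with 1 point per library in grey for DMSO and orange for GSK-126 and the replicate number as the marker shape. Nfix lies highest in every library and Nfatc4 lowest, and Etv1 spreads most, from 4.39 to 25.6 CPM per kb.

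The 4 NFI genes together had 135, 167 and 151 CPM per kb in DMSO replicates 1, 2 and 3, and 127, 132 and 122 with GSK-126. The highest GSK-126 library therefore lay below the lowest DMSO library, which held for 4.72% of single tested genes. Nfix and Nfic, whose own groups did not overlap, are part of the sum, so it is not a separate result. Nfix made up 48.8 ± 2.26% of that sum (SD, n = 3) with DMSO and 47.9 ± 0.583% with GSK-126. The shares of Nfic (21.8 ± 0.564% and 20.9 ± 1.52%), Nfib (17.6 ± 1.33% and 18.8 ± 1.29%) and Nfia (11.8 ± 0.566% and 12.4 ± 0.697%) also moved by about the spread between libraries or less.

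Etv1 (ENSMUSG00000004151.17) lies on the forward strand of chromosome 12 from 38779380 to 38870484 in GRCm38. Its promoter sequences are shown because it is the member with the largest change. RefSeq (GRCm38.p6) gave 2 windows for Etv1, each from 250 bases before a start site to 50 after it. Capitals mark matches to the motifs searched.
Etv1 window 1 (chr12:38779832-38780131, forward strand): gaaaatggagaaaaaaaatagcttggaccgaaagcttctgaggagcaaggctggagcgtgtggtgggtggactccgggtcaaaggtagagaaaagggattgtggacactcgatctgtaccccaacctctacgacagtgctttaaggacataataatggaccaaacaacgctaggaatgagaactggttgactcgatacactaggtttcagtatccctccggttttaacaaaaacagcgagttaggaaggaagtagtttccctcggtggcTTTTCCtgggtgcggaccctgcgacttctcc
Etv1 window 2 (chr12:38783461-38783760, forward strand): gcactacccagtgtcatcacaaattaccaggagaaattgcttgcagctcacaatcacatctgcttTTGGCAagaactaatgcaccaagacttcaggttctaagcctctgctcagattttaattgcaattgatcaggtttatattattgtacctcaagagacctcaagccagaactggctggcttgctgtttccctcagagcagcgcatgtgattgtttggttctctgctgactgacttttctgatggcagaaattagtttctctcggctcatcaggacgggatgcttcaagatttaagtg

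The capitals in window 1 are the reverse complement of the NFAT core GGAAAA, at bases 270 to 275 of the window, and those in window 2 are the single NFI site TTGGCA, at bases 66 to 71. Window 1 had 12 CpG dinucleotides and a GC content of 48.7%, and window 2 had 3 CpG dinucleotides and 44% GC. Of the 6 genes, 5 had windows, 9 in all, and Nfib had no entry. The Nfia window (chromosome 4, 97581693 to 97581992) lies before the GENCODE gene, which starts at 97772734. The windows of Nfix, Nfic, Etv1 and Nfatc4 lie inside their genes, away from the annotated gene starts. Etv1 windows 1 and 2 begin at 38779832 and 38783461, where the GENCODE gene starts at 38779380. Whether these start sites are used in the cultures was not tested. GGAAAA was in 3 of these 9 windows, 1 each for Nfix, Etv1 and Nfatc4, and in 23.4% of all 32851 promoter windows, counting both strands. TTGGCA was in 1 of 9 and in 14.1% of all windows. The ETS core CCGGAA was in 0 of 9 and 14.9%, and the NFI palindrome, TTGGC and GCCAA with 5 bases between them, in 0 of 9 and 0.0365%. CCGGAA and GGAAAA can share the letters GGAA, and TTGGCA can overlap a palindrome. These matches describe letters and were not tested against binding.

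The Etv1 counts were 928, 3652 and 1824 in DMSO replicates 1, 2 and 3, and 770, 1136 and 542 with GSK-126. As CPM, Etv1 stood at 107, 340.5 and 158.5 with DMSO and at 58.4, 122 and 72.4 with GSK-126. DMSO replicate 2 was the highest library and its GSK-126 partner the highest of the treated ones, so that the groups overlapped, GSK-126 replicate 2 lying above DMSO replicate 1. The log2 fold change was -1.26 without the block (standard error 0.44, edgeR adjusted p = 0.953, Benjamini-Hochberg). With the block it was -1.17 (standard error 0.096, 95% interval -1.37 to -0.97, edgeR adjusted p = 1.53e-07, Benjamini-Hochberg). The 3 pairs gave -0.88, -1.48 and -1.13, and 75 of 16729 tested genes (0.448%) had a larger fall in the block fit. The largest difference was thus in the pair with the highest starting level. The call held when each pair was left out, with values of -1.30, -1.0 and -1.19 without pairs 1, 2 and 3. Without the block, leaving out DMSO replicate 2 alone moved the value to -0.65. An exact permutation test of the unpaired libraries, two-sided, gave p = 0.2, where 3 against 3 cannot go below 0.1.

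Etv1 differed more between cultures than the other 5 genes. Its highest library was 5.83 times its lowest over the 6 libraries, and 3.18 times over the 3 DMSO libraries alone. The NFI genes ranged over 1.34 to 1.47 times, and Nfatc4 over 2.17 times. The spread of Etv1 went with markers of the cells in the dish. The 7 mature granule neuron markers (Gabra6, Grin2c, Gabrd, Grm4, Slc17a7, Cbln3 and Fat2) summed to 1814, 3386 and 2402 CPM with DMSO and 1351, 2343 and 1911 with GSK-126. With the block all 7 were called lower. Their log2 fold changes were -1.95 (Slc17a7), -1.19 (Gabra6), -0.93 (Gabrd), -0.90 (Cbln3), -0.66 (Grm4), -0.64 (Grin2c) and -0.25 (Fat2). The sum rests largely on Fat2, at a mean of 1706 CPM with DMSO. The 6 lineage markers (Zic1, Zic2, Neurod1, Neurod2, Pax6 and Rbfox3) summed to 3047, 4610 and 3490 CPM with DMSO and 2524, 3850 and 2690 with GSK-126, with 3 of 6 called lower (Zic1, Neurod1 and Rbfox3) and 0 higher. Over all tested genes, 5.09% were called lower and 3.35% higher with the block. All of these markers were detected in every library. In bulk RNA, fewer cells of a type and less RNA per cell cannot be told apart.

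Markers of other cells were also present in the cultures. The calls among them stand beside 3.35% of all tested genes called higher and 5.09% called lower with the block. The 10 astroglial markers, all detected, summed to between 2871 and 8449 CPM with DMSO and between 2732 and 8757 CPM with GSK-126, and 1 of 10 (S100b) was called higher with the block. Replicate 1 was highest and replicate 2 lowest in both groups. The 9 oligodendrocyte markers summed to 453 to 787 CPM and 525 to 800 CPM, with 1 called higher (Mbp). The 8 microglial markers summed to 203 to 431 CPM and 283 to 533 CPM, with 2 called higher (C1qa and C1qb). The 8 vascular and fibroblast markers summed to 3123 to 4594 CPM and 4022 to 4993 CPM, with 2 called higher (Pdgfrb and Acta2) and the endothelial Cldn5 under 1 CPM in every library. The 7 Purkinje cell and interneuron markers summed to 208 to 243 CPM and 162 to 197 CPM, with 3 called lower (Gad1, Gad2 and Slc32a1). Pcp2, a Purkinje cell marker of that list, was low at 2.08 to 2.61 CPM with DMSO and 0.668 to 1.29 CPM with GSK-126, without overlap, and did not pass the test with the block (edgeR adjusted p = 0.163, Benjamini-Hochberg). Of 7 progenitor markers, 2 of the 6 tested were called higher (Ccnd2 and Barhl1), and the list summed to 563 to 863 CPM and 655 to 983 CPM. The part of these cells in the fall of Etv1 was not tested.

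**Figure D3:**
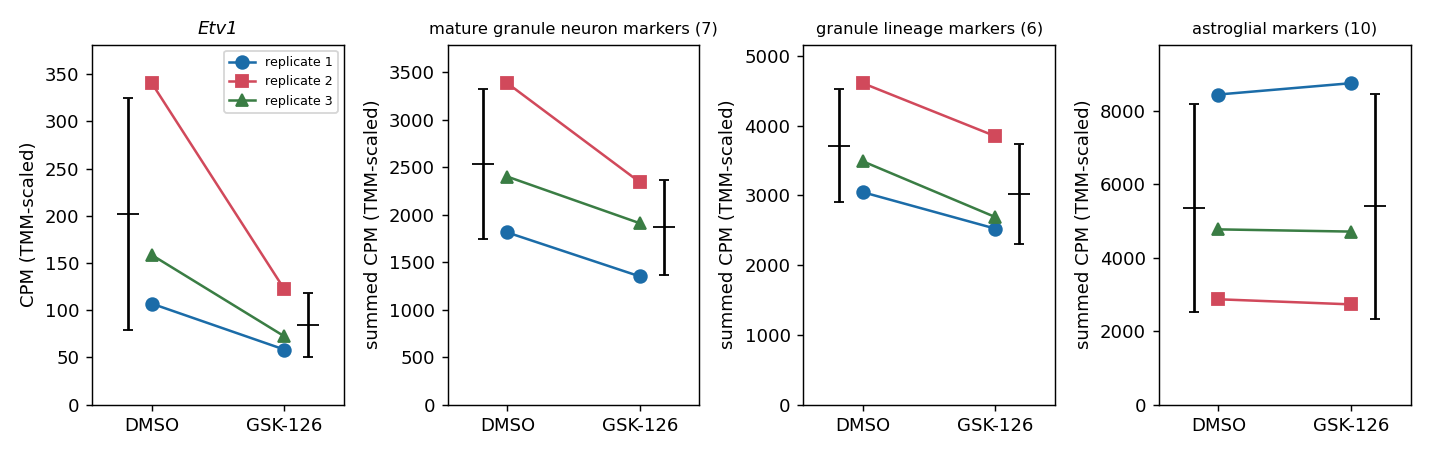
Etv1 in CPM beside the summed CPM of 7 mature granule neuron markers, 6 granule lineage markers and 10 astroglial markers, with lines joining libraries of one replicate number and bars giving the mean and SD of 3 libraries. Replicate 2 is highest for Etv1 and both granule neuron panels and lowest for astroglia, and the astroglial lines stay nearly level, at 8449 and 8757 CPM in replicate 1.

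Relative to the summed lineage markers of the same library, Etv1 was still lower with GSK-126 in each pair, with log2 differences of -0.60, -1.22 and -0.76 (mean -0.86, SD 0.319 over 3 pairs). On this scale the groups did not overlap, with DMSO libraries from -4.83 to -3.76 and GSK-126 libraries from -5.44 to -4.98 (two-sided exact permutation p = 0.1, the limit of this design). The NFI genes had no common direction on it. Nfix had pair differences of 0.18, -0.048 and -0.032 (mean 0.033), and Nfic of 0.21, -0.30 and 0.073 (mean -0.0037). Nfia was higher relative to these markers in all 3 pairs (mean 0.13, SD 0.0845), and Nfib in 2 of 3 (mean 0.15, SD 0.152). The exact permutation test over unpaired libraries gave p = 0.4 for both (two-sided). It ignores the pairing, so it does not measure the spread of the pair differences. The scaling to lineage markers was chosen after the data were seen, and 3 of the 6 lineage markers were themselves called lower.

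Nfix (ENSMUSG00000001911.16, chromosome 8, 84699876 to 84800344, reverse strand) is linked in the cerebellum to the timing of granule neuron migration and dendrite growth. It stood at 486, 571 and 565 CPM in DMSO replicates 1, 2 and 3, and at 455, 462 and 426 CPM with GSK-126. The groups did not overlap, and the smallest difference was in pair 1 (log2 difference -0.094, against -0.31 and -0.41 in pairs 2 and 3). Its log2 fold change was -0.27 in both fits, with an edgeR adjusted p of 0.953 without the block and 0.0256 with it (Benjamini-Hochberg, 95% interval with the block -0.42 to -0.12). Without pair 2 or pair 3 the call was lost, with adjusted p-values of 0.101 and 0.235 (edgeR, Benjamini-Hochberg, with the block) and values of -0.25 and -0.20. The exons of Nfix share 137 bp with G430095P16Rik and 4 bp with Lyl1 on the opposite strand, whose reads could not be told apart if counting ignored strand, which is not given in the sources used here.

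Nfic (ENSMUSG00000055053.18, chromosome 10, 81396186 to 81455635, reverse strand), known for its role in tooth root formation, was at 196, 248 and 212 CPM with DMSO and at 188, 168 and 172 CPM with GSK-126. Here too the groups did not overlap, although DMSO replicate 1 lay close above GSK-126 replicate 1, and pair 2 held most of the difference (-0.058, -0.56 and -0.30 in pairs 1, 2 and 3). The log2 fold change was -0.31 in both fits, with an edgeR adjusted p of 0.953 without the block and 0.0295 with it (Benjamini-Hochberg, 95% interval with the block -0.49 to -0.13). Without pair 2 it was -0.18, and without pair 3 it was -0.31, with adjusted p-values of 0.254 and 0.0519 (edgeR with the block, Benjamini-Hochberg). In the block fit 12.2% of tested genes fell more than Nfic and 14.7% more than Nfix. Nfic shares 72 bp of exon with Gm16104 on the opposite strand.

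Nfia (ENSMUSG00000028565.18, chromosome 4, 97772734 to 98118874, forward strand) also drives gliogenesis in the spinal cord. Its libraries were at 179, 221 and 184 CPM with DMSO and 164, 189 and 163 CPM with GSK-126, so that the groups overlapped while each pair was lower (-0.13, -0.22 and -0.17). The log2 fold change with the block was -0.17 (95% interval -0.33 to -0.023, edgeR adjusted p = 0.162, Benjamini-Hochberg). Nfib (ENSMUSG00000008575.17, chromosome 4, 82290173 to 82705750, reverse strand), which is also needed for lung maturation, had 344, 479 and 377 CPM with DMSO and 331, 393 and 346 CPM with GSK-126. Again the groups overlapped and each pair was lower (-0.055, -0.29 and -0.12). The log2 fold change of Nfib with the block was -0.16 (95% interval -0.30 to -0.0053, edgeR adjusted p = 0.213, Benjamini-Hochberg). Leaving out pair 2 moved the block value of Nfib to -0.086. Falls of this size were common, since 24.0% of tested genes fell more than Nfia in the block fit and 26.4% more than Nfib. Nfia shares 4 bp of exon with E130114P18Rik on the opposite strand, and Nfib shares none.

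Nfatc4 (ENSMUSG00000023411.12, chromosome 14, 55823144 to 55833943, forward strand) was the member with the fewest counts, between 80 and 247 per library. It stood at 14.1, 12.8 and 16.4 CPM with DMSO and at 18.7, 8.62 and 16.3 CPM with GSK-126. GSK-126 replicate 1 was the highest library and GSK-126 replicate 2 the lowest, so that the DMSO libraries lay inside the range of the treated ones. The pairs gave 0.41, -0.56 and -0.0094, and the log2 fold change with the block was -0.031 (95% interval -0.41 to 0.35, edgeR adjusted p = 0.946, Benjamini-Hochberg). A change within that interval, in either direction, was not excluded, and counting error alone was 11.2% (coefficient of variation) at its smallest count.

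**Figure D4:**
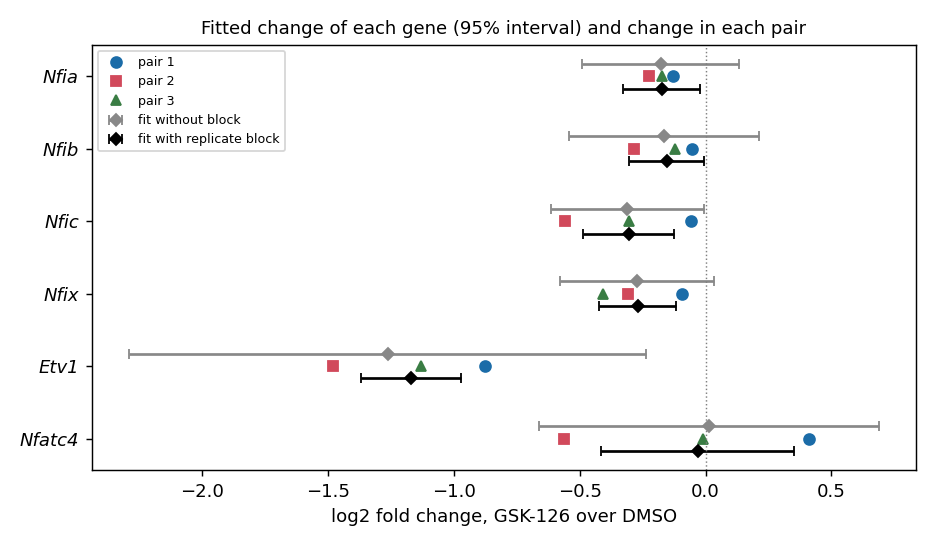
Log2 fold change of GSK-126 over DMSO for each gene, with the difference in each of the 3 pairs as points and the fitted value and 95% interval without the block in grey and with it in black. Etv1 alone lies below -0.87 in every pair, and the Nfatc4 pairs lie on both sides of 0, at 0.41, -0.56 and -0.0094.

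Ratios between members within a library remove the depth of that library. The log2 ratio of Etv1 to Nfatc4, the factors described as acting at opposite ends of the switch, was 2.93, 4.74 and 3.27 in DMSO replicates 1, 2 and 3 and 1.64, 3.83 and 2.15 with GSK-126. The groups overlapped (two-sided exact permutation p = 0.3 over unpaired libraries), while the ratio was lower in every pair, with differences of -1.29, -0.91 and -1.12 (mean -1.1, SD 0.19 over 3 pairs). The log2 ratio of Etv1 to Nfib fell by 0.82, 1.19 and 1.01 in the 3 pairs (two-sided exact permutation p = 0.1, the limit of this design), although DMSO replicate 1 and GSK-126 replicate 2 were nearly equal. Among the NFI genes, the ratios to Nfib moved by -0.020 for Nfia, -0.15 for Nfic and -0.12 for Nfix, with exact permutation p-values of 0.8, 0.3 and 0.4 (two-sided). An exact permutation test that flips the sign of pair differences, added after the data were seen, gave p = 0.25, the smallest that 3 pairs allow, for each ratio but Nfia to Nfib (p = 0.75). All 5 ratios were compared, and neither of these permutation tests can pass 0.05 with 3 cultures a group. Leaving out GSK-126 replicate 2 moved the Nfic to Nfib ratio to -0.048 and leaving out GSK-126 replicate 1 moved it to -0.25, and the Nfix to Nfib ratio lay between -0.21 (without DMSO replicate 2) and -0.045 (without DMSO replicate 3).

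Over the 6 libraries Etv1 followed Nfia (Pearson r = 0.968 of log2 CPM, n = 6) and Nfib (r = 0.940) more closely than Nfix (0.860), Nfic (0.802) or Nfatc4 (-0.406). Nfia and Nfib followed each other at r = 0.959, and Nfic and Nfix at 0.899. The libraries share their treatment and replicate number, so these values are descriptions. Among 11978 genes with a mean log2 CPM over 3, those most like Etv1 were Kif1b, Kdm7a, Sez6l2, Ust and Celsr2, with r from 0.996 to 0.997. In all, 1215 genes had r over 0.9 with Etv1, 1308 with Nfia and 1237 with Nfib, against 134 with Nfix, 136 with Nfic and 152 with Nfatc4. The genes most like Nfia were Rhot1, Cacna1a, Cask, Atp13a1 and Pnisr (0.997 to 0.998), and those most like Nfib were Nr1d2, Gm31409, Atp2a2, Armc8 and Mllt10 (0.996 or more). Nfix was nearest to Abhd17b, Dusp7, Pde4b, Kpna6 and Eml1 (0.973 to 0.992), Nfic to C030014I23Rik, Rgs3, Nrcam, Stk35 and Ckap5 (0.980 to 0.984), and Nfatc4 to Plce1, Cep162, Vwa8, Ifi30 and St3gal6 (0.980 to 0.990).

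Genes described as NFI or ETV1 targets in CGNs were mostly lower, with 4 of 7 called with the block, all lower, and a median log2 fold change of -0.60, where 5.09% of all tested genes were called lower. Gabra6, a GABA-A receptor subunit found in mature CGNs, stood at 75.7, 216 and 84.1 CPM with DMSO and 35.6, 78.7 and 43.0 with GSK-126 (log2 fold change -1.19, edgeR adjusted p = 1.53e-07 with the block, Benjamini-Hochberg). Its libraries ranked much as those of Etv1 did, replicate 2 being highest in each group. Wnt7a, a secreted factor that acts on mossy fibre terminals, went from 28.4 to 55.6 CPM with DMSO to 10.6 to 22.9 CPM with GSK-126 with no overlap (-1.19, adjusted p = 9.21e-06, same fit). Tiam1, a Rac activator of spines and dendrites, went from 40.03 to 76.0 CPM to 28.8 to 39.96 CPM (-0.60, adjusted p = 0.00236, same fit), so that its groups nearly touched. Grin2c, an NMDA receptor subunit of mature CGNs, overlapped between groups and was lower at -0.64 (adjusted p = 0.022, same fit). The cell adhesion genes Cntn2 (-0.12), Cdh2 (-0.18) and Efnb1 (0.096), which act earlier in axon growth and migration, did not pass the test. Gabra6 and Grin2c are also mature granule neuron markers, so the list is not separate from those markers.

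**Figure D5:**
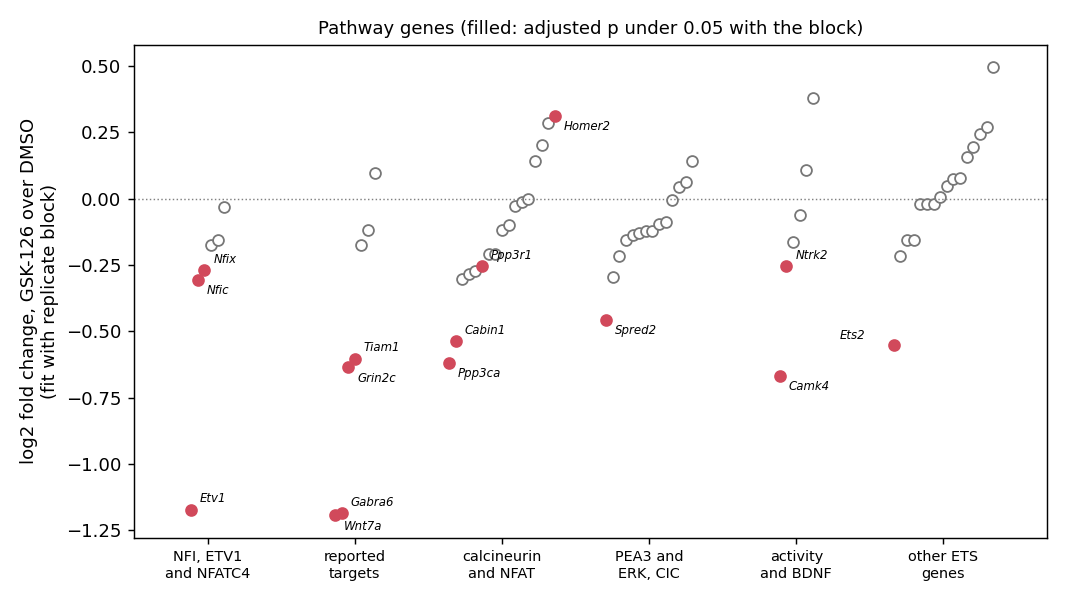
Log2 fold change with the replicate block for the genes of each list, with 1 point per gene, filled and named where the edgeR adjusted p was under 0.05. Etv1 lies at -1.17 beside Gabra6 and Wnt7a at -1.19 each, and Homer2, at 0.31, is the only filled point above 0.

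In the calcineurin and NFAT list, 4 of 17 tested genes were called with the block, 3 lower and 1 higher, where 5.09% of all tested genes were called lower and 3.35% higher. The median log2 fold change of the list was -0.12. Ppp3ca, the main catalytic subunit of calcineurin in neurons, stood at 742, 1193 and 758 CPM with DMSO and 483, 710 and 541 with GSK-126, without overlap (log2 fold change -0.62, edgeR adjusted p = 9.21e-06, Benjamini-Hochberg). Its regulatory partner Ppp3r1 was lower as well (-0.25, adjusted p = 0.035, same fit). Cabin1, an inhibitor of calcineurin, was also lower, from 100 to 133 CPM to 69.3 to 83.8 CPM (-0.54, adjusted p = 7.53e-04, same fit). Homer2, a scaffold protein that competes with calcineurin for NFAT, was the gene called higher (0.31, adjusted p = 0.0208, same fit). The other NFAT genes did not pass the test, with Nfatc1 at 0.14, Nfatc2 at -0.27, Nfatc3 at -0.10 and Nfat5 at -0.28. Rcan1, which calcineurin and NFAT induce, was at 0.20 (adjusted p = 0.369, same fit). Ppp3r2 was under 1 CPM in every library and was not tested.

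The closest relatives of Etv1 were not called. Etv4 and Etv5, the other PEA3 factors, had log2 fold changes of -0.22 and -0.15 with edgeR adjusted p-values of 0.451 and 0.313 with the block (Benjamini-Hochberg). The difference between them and Etv1 was not tested. Etv5 also ranked its libraries in another order, with 118, 80.8 and 109 CPM with DMSO and 120, 67.1 and 93.0 CPM with GSK-126, replicate 2 being lowest. Of 14 genes of PEA3 factors and their ERK and CIC regulation, 1 was called, against a background of 8.44%. It was Spred2, an inhibitor of ERK signalling (-0.46, adjusted p = 0.00138, same fit), whose groups did not overlap. The repressor Cic (0.043), its partners Atxn1 (-0.088) and Atxn1l (-0.14), and Cop1 (-0.12), a ubiquitin ligase that acts on ETV1, did not pass the test. Of the list of other ETS family genes, which again holds Etv4 and Etv5, 16 of 25 were tested and 1 was called. It was Ets2 (-0.55, adjusted p = 0.0331, same fit), with 101 CPM in DMSO replicate 2 against 35.0 to 56.1 CPM in the other 5 libraries. Elk1 was higher with no overlap between groups (0.27) and did not pass the test (adjusted p = 0.0882, same fit). Erg, listed at 0 in the DMSO libraries and at 0.108 to 0.455 CPM with GSK-126, did not overlap either but was too low to be tested.

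For the inputs that set the switch, 2 of 6 genes were called with the block, both lower, where 5.09% of all tested genes were. Camk4, a calcium-dependent kinase abundant in CGNs, stood at 98.97, 197 and 132 CPM with DMSO and 65.4, 116 and 84.8 with GSK-126 (log2 fold change -0.67, edgeR adjusted p = 1.48e-05, Benjamini-Hochberg). Ntrk2, the BDNF receptor that glia also express, was lower by a smaller amount (-0.25, adjusted p = 0.0248, same fit). Bdnf itself was at 1.61 to 5.65 CPM with DMSO and 3.18 to 6.41 CPM with GSK-126 and did not pass the test (0.38, adjusted p = 0.529, same fit). The L-type calcium channel genes Cacna1c (-0.16) and Cacna1d (-0.063) did not pass it either. Without the block, edgeR called 0 genes of each of these 5 lists. At an unadjusted p under 0.05 in that fit, the target list had 3 of 7 tested genes and the calcineurin list 2 of 17. The PEA3 list had 1 of 14, the input list 1 of 6 and the other ETS list 1 of 16, all lower but Elk1. Of all tested genes, 2.21% were lower and 1.77% higher at that threshold.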

How the data were processed

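RNA was measured by polyA-selected, paired-end RNA-seq in 3 DMSO and 3 GSK-126 libraries of CGN cultures, grouped by the titles in the labels. Reads were cleaned by the authors in Trimmomatic 0.38 and mapped by STAR 2.7.2b on GRCm38.p4 (mm10). HTSeq then summed them over exons, and the deposited values are raw counts per gene, not normalized. The Gencode release and the strand setting of the counting are not given in the sources used here. The symbols matched those of GENCODE M21 (55341 of 55341), which gave identifiers, coordinates and exon lengths. Lines that name no gene held 58.7% to 60.7% of the listed reads and were left out. The depth, 7407189 to 13092763 counts on genes, sets the precision of low genes such as Nfatc4.

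Counts were tested in R 4.3.3 with edgeR 4.0.16 (TMM factors, filterByExpr, quasi-likelihood test, Benjamini-Hochberg adjustment over all 16729 tested genes, threshold 0.05), without a block as the main fit and with the replicate number as a block. CPM is scaled by TMM factors, and a value per kb is divided by the union of exons. An offset of 0.5 counts was added before log2 pair differences. The biological coefficient of variation was 24% without the block and 9.74% with it. Replicate numbers come from the titles. Deviations from the group means correlated across genes at 0.54, 0.61 and 0.47 between libraries of one number, so the numbers were taken to pair the libraries. Between unlike numbers the correlations were 0.001 or less. Centring on the group means itself pushes these down, so they are not separate evidence for the pairing. That a replicate is a pool of litters comes from the methods of the study.

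Alternatives were DESeq2 1.42.0 with and without the block, other scalings, other filters on low counts, a threshold of 0.01, and leaving out each library or pair. A scaling to granule lineage markers was added after the data were seen. The fits were tested on simulated data. The genes and lists were chosen with earlier results of these data known, so no count over them is independent support. The genes named are the 6, the list genes that were called with the block or whose groups did not overlap, and the 5 genes most correlated with each. Other list genes named as not passing the test were picked after their values were seen. The lists come from general knowledge of CGNs, and 1 of their genes is not reported here and was left out of its list. Promoter windows came from RefSeq (GRCm38.p6), and both strands were searched for each motif.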

Additional observations from a re-analysis of the deposited data

How the results depend on the processing

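Without the replicate block, edgeR called 0 genes under every scaling, at the stricter threshold, with at least 10 counts and with each library left out. Dropping the filter gave 9 higher and 1 lower, and DESeq2 gave 19 higher and 2 lower. With the replicate block, which reflects the pairing of the libraries, edgeR called 561 genes higher and 851 lower, and DESeq2 351 and 600. The block brought in the calls of Etv1 (-1.17), Nfic (-0.31) and Nfix (-0.27), and DESeq2 with the block kept them (-1.16, -0.30 and -0.26, adjusted p-values of 9.94e-21, 0.0413 and 0.0122, Benjamini-Hochberg). With the block, edgeR called 4 of 7 tested target genes, 4 of 17 for calcineurin and NFAT and 1 of 14 for PEA3. It called 2 of 6 for depolarisation and BDNF and 1 of 16 for other ETS genes. Of all tested genes, 8.44% were called in that fit. DESeq2 with the block called 3, 3, 1, 2 and 0 in the same order, and its share of all genes was not computed. The block changed no other call of the 6 genes.

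With the block and 1 pair left out, Etv1 ranged from -1.30 to -1.0 (-1.19 without pair 3) and was called each time. Nfic ranged from -0.42 to -0.18 and Nfix from -0.34 to -0.20, called without pair 1 (adjusted p-values of 0.00421 and 0.00891, edgeR, Benjamini-Hochberg) and not without pair 2 or pair 3. Nfia ranged from -0.18 to -0.15 and Nfib from -0.19 to -0.086, and neither was called. Nfatc4 ranged from -0.26 to 0.21 (-0.041 without pair 3). Genes called higher then numbered 337 to 558 and lower 496 to 719 (417 and 671 without pair 1), with 2 to 4 targets, 2 to 4 calcineurin genes, 1 PEA3 gene, 1 depolarisation gene and 0 to 1 other ETS genes.

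With 1 library left out and no block, Nfia ranged from -0.23 to -0.073, Nfib from -0.25 to -0.012, Nfic from -0.37 to -0.21, Nfix from -0.33 to -0.23, Etv1 from -1.61 to -0.65 and Nfatc4 from -0.20 to 0.30. The Nfia to Nfib ratio ranged from -0.063 to 0.025, turning without DMSO replicate 1, the Etv1 to Nfib ratio from -1.28 to -0.68 the Etv1 to Nfatc4 ratio from -1.75 to -0.56, the Nfic to Nfib ratio from -0.25 to -0.048 and the Nfix to Nfib ratio from -0.21 to -0.045. Nfatc4, at 0.014 without the block, turned sign without DMSO replicate 2 (-0.063), GSK-126 replicate 1 (-0.20) and GSK-126 replicate 3 (-0.070), and with the block (-0.031 edgeR, -0.038 DESeq2). Relative to lineage markers, Nfia (0.13), Nfib (0.15) and Nfix (0.033) turned sign. Nfic kept its sign on that scale but moved to -0.0037. Without division by exon length Nfib ranked 2 and Nfic 3. The other scalings moved the median of all genes by 0.0345 or less. The causes of these changes were not tested.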
